A study of Mus musculus with 14 samples.

Results

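The genes described here encode the adhesion complex that holds a stratified epithelium to its basement membrane: Col17a1, Itga6, Itgb4, Dst, Plec and Cd151, which make or join the hemidesmosome, Itga3, which makes a laminin receptor, and Lama3 and Lamb3, which make chains of the laminin that both receptors bind. These 9 genes were chosen by symbol, and all 9 were found among the 55291 gene rows of 14 bulk RNA-Seq libraries of mouse esophagus. All mice were wild-type C57BL/6, called aged at 18 months or more and young at 4 months or less. Peeled epithelium was sequenced from 5 aged mice (O1E, O2E, O3E, OF5 and OM8) and 4 young mice (Y1E, Y3E, YF5 and YM4). Tissue labelled esophageal stroma was sequenced from 3 of these aged mice (O1S, O2S and O3S) and 2 of these young mice (Y1S and Y3S). The paper describes an epithelium-enriched layer that was left after the muscle layer had been taken off with forceps. No treatment or genetic change separated the groups, so that the design asks how the complex differs between the layers of 1 organ and between ages.

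Hemidesmosomes are spot-like junctions at the base of basal keratinocytes. Inside the cell the plakins encoded by Plec and Dst bind keratin filaments, in the membrane the integrin made by Itga6 and Itgb4 and the transmembrane collagen made by Col17a1 span to the outside, and the tetraspanin Cd151 sits beside the integrins. Outside the cell the laminin that contains the products of Lama3 and Lamb3 is the ligand, and the anchoring fibrils made from Col7a1 tie the basement membrane to the connective tissue. Several of the genes also work elsewhere. Dst has long isoforms in nerve and muscle beside its epithelial isoform, Plec has muscle isoforms at Z-discs and costameres, Itgb4 and Itga6 are made by Schwann cells and Itga6 by endothelium, and Cd151 is made by many cell types.

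The epithelial libraries held 1042394 to 11067320 counts in protein-coding genes and the stromal libraries 6665526 to 8109419. The 4 mice with a letter F or M in their codes (OF5, OM8, YF5 and YM4, called lettered mice below) have no stromal sample and were the shallow libraries, with 1042394 to 1433857 protein-coding counts and 63.9% to 73.9% of all counts in 1 ribosomal RNA locus, against 10.4% to 23.3% in the epithelium of the numbered mice (O1, O2, O3, Y1 and Y3). The labelled layers were checked against their markers. Basal keratinocyte markers (Krt5, Krt14, Krt15, Trp63 and Sox2) summed to 729 to 2339 normalized counts in epithelium and 11.6 to 62.1 in stroma, and 12 skeletal muscle markers summed to 169 to 1855 in epithelium and 42353 to 76538 in stroma. Some other marker sums stood apart as well. Those of 6 differentiated keratinocyte markers were 17116 to 53232 in epithelium and 35.3 to 435 in stroma. Those of 6 endothelial markers were 17.7 to 31.8 and 38.8 to 138, and those of 4 blood and immune markers 5.79 to 34.2 and 102 to 275. Fibroblast and smooth muscle markers did not separate the layers. Sums of 6 fibroblast markers were 280 to 632 in epithelium and 415 to 1031 in stroma, and those of 5 smooth muscle markers 333 to 835 and 303 to 2051. The epithelial libraries thus also held RNA of the fibroblast and smooth muscle lists. Here and below a normalized count is a CPM value on a library size that edgeR's TMM method scaled across the 14 libraries, without correction for gene length.

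Of the 9 genes, 6 were higher and 3 were lower in epithelium than in stroma. The genes higher in epithelium were Col17a1, Itga6, Itgb4, Itga3, Lama3 and Lamb3, with log2 fold changes from 1.34 to 5.79, and those higher in stroma were Dst, Plec and Cd151, with log2 fold changes from -2.24 to -1.42. The collagen, the integrins and the laminin chains therefore stood on one side, and both plakins and the tetraspanin on the other. Each of these differences passed edgeR's quasi-likelihood test at a Benjamini-Hochberg adjusted p of 0.05 over the 16791 genes tested, and 9 of 9 were also called by DESeq2. The layers differed widely: 56.2% of all genes tested were called, 26.1% as higher and 30.1% as lower in epithelium, so that a call by itself does not set these genes apart. With mouse as a block in the 10 libraries of the numbered mice, 4911 genes were called higher and 3778 lower in epithelium, against 4382 and 5059 in all 14 libraries, and the 9 genes kept their direction and call. For 8 of the 9 genes no epithelial library overlapped a stromal one, which held for 31.3% of all genes tested. In bulk tissue a lower level can come from fewer cells of a type or from less RNA per cell, which cannot be told apart.

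**Figure D1:**
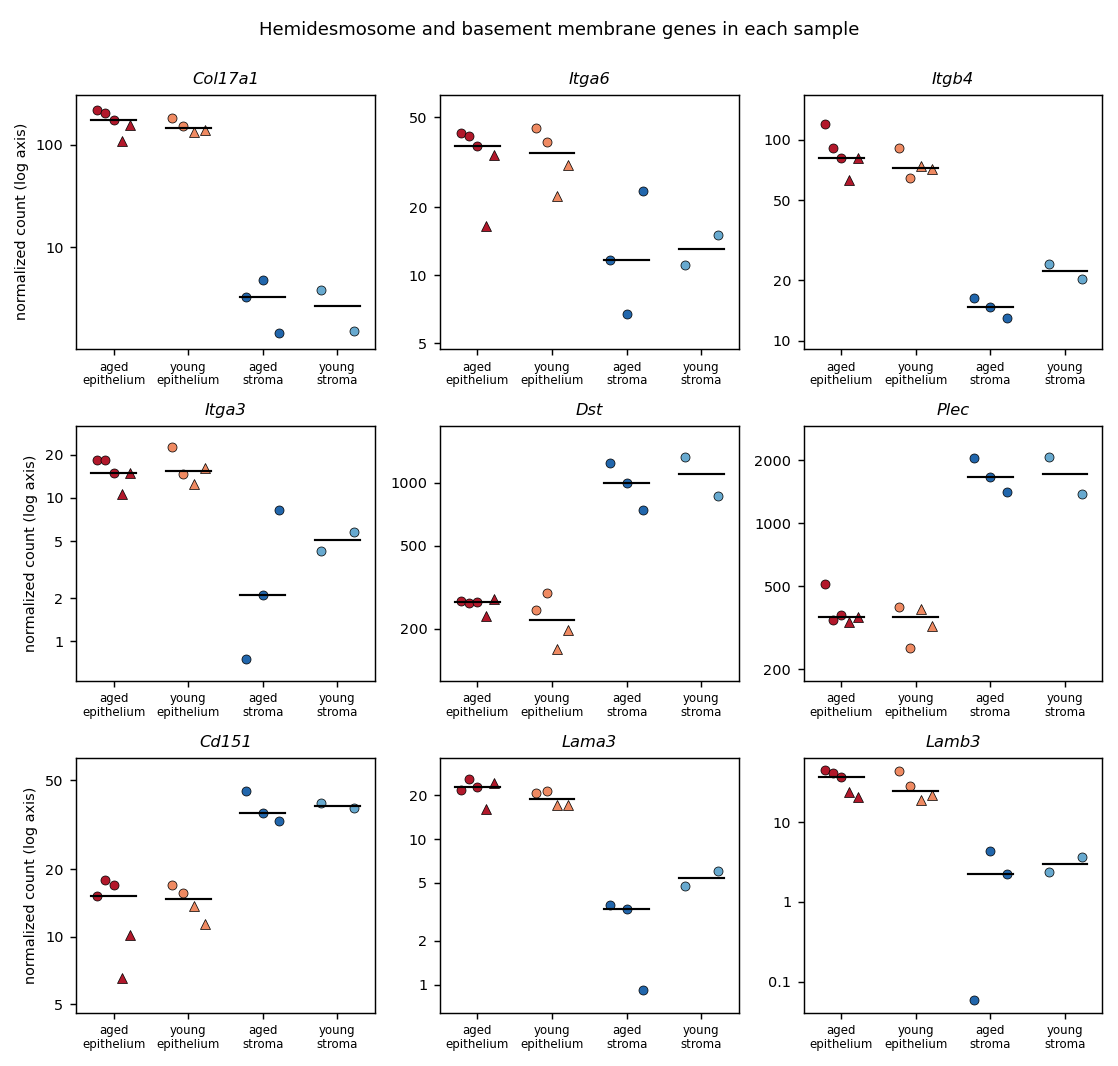
Normalized counts (log axis) of the 9 genes in each library, by layer and age, with circles for numbered mice, triangles for lettered mice and a line at the group median. Epithelial and stromal libraries stand apart for every gene except Itga6, where O3S at 23.6 is above OF5 at 16.5 and YF5 at 22.5.

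**Figure D2:**
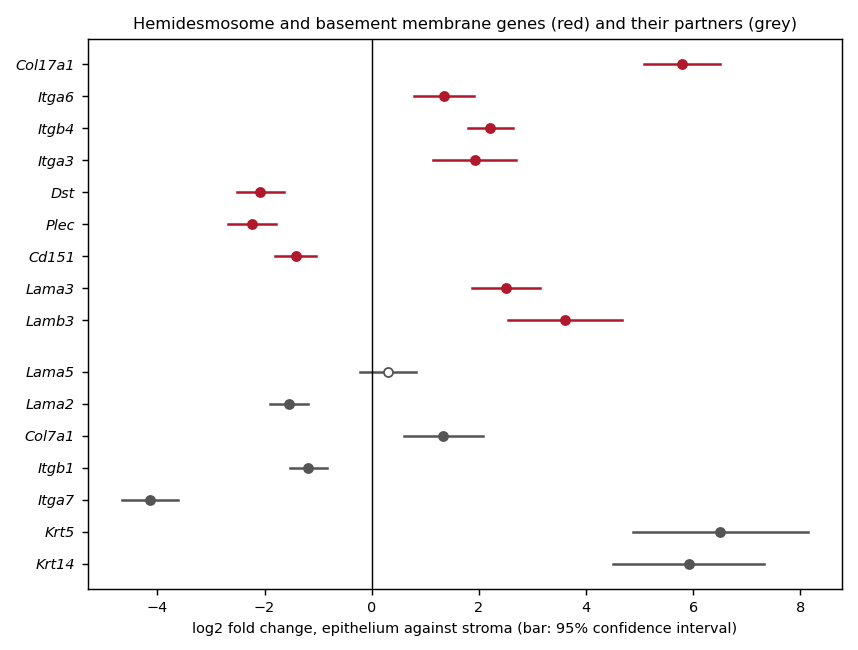
Log2 fold changes of epithelium against stroma with 95% confidence intervals for the 9 genes (red) and 7 partners (grey), with an open point where the adjusted p was above 0.05. Col17a1 lies at 5.79, Krt5 at 6.51 and Krt14 at 5.92, and Dst, Plec and Cd151 lie on the stromal side with Itga7 and Itgb1.

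Levels can be ranked between genes only per length, and were divided by the kilobases of exon annotated for each gene in GENCODE M21 (build GRCm38). In epithelium the order of the means was Col17a1 (27.3 ± 5.88 normalized counts per kb, SD, n = 9), Plec (20.1 ± 3.89), Itgb4 (11.6 ± 2.47), Dst (5.95 ± 1.04), Cd151 (5.05 ± 1.38), Lamb3 (4.70 ± 1.59), Itga6 (3.80 ± 1.06), Itga3 (2.79 ± 0.617) and Lama3 (1.94 ± 0.313). The ranges of each pair of neighbours in this order overlapped, except that Itgb4 at 8.99 to 17.0 stood above Dst at 3.90 to 7.17. In stroma the order was Plec (94.7 ± 18.4, SD, n = 5), Dst (25.2 ± 6.05), Cd151 (13.9 ± 1.63), Itgb4 (2.52 ± 0.641), Itga6 (1.51 ± 0.699), Itga3 (0.741 ± 0.517), Col17a1 (0.497 ± 0.245), Lamb3 (0.384 ± 0.249) and Lama3 (0.346 ± 0.179). Col17a1 thus went from the first place in epithelium to the seventh in stroma, while Plec, Dst and Cd151 filled the first places there without overlap between them. The exons of all isoforms enter these lengths, so that genes of many isoforms, such as Dst with 41155 bases of exon and 20 annotated transcripts, stand lower per kb than a single isoform would.

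Col17a1 (chromosome 19, 47646344 to 47692094, minus strand, GRCm38) encodes the transmembrane collagen that binds the integrin and the plakins within the hemidesmosome. Its promoter is printed because the gene had the widest gap between the layers among the 9. The 198 bases are the part of the RefSeq promoter window (build GRCm38.p6) before the annotated gene, at chr19:47692095-47692292, minus strand, written 5′ to 3′ and ending 53 bases before the RefSeq start, with both occurrences of the TATA box letters TATAAA in capitals.
Col17a1: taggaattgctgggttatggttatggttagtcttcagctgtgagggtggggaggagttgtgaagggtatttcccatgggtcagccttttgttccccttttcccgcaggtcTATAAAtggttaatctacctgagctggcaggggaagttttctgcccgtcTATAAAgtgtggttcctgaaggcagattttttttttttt
These letters were found, on either strand, in 13.6% of all 32851 RefSeq promoter windows of 300 bases.

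In aged epithelium Col17a1 stood at 222, 204, 174, 109.6 and 158 normalized counts in O1E, O2E, O3E, OF5 and OM8, and in young epithelium at 184, 152, 134 and 141 in Y1E, Y3E, YF5 and YM4. In stroma it stood at 3.27, 4.85 and 1.45 in O1S, O2S and O3S and at 3.82 and 1.54 in Y1S and Y3S, from 38 to 118 counts per library. Every epithelial library was far above every stromal one, and the 2 ages interleaved within each layer. The means were 164 ± 35.3 (SD, n = 9) in epithelium and 2.98 ± 1.47 (SD, n = 5) in stroma, a log2 fold change of 5.79 (standard error, SE, 0.34, edgeR adjusted p = 1.83e-11), or 55.2-fold with a 95% confidence interval of 33.9 to 89.9. This change lay above 98.5% of all genes tested. The basal keratin genes had log2 fold changes of 6.51 for Krt5 and 5.92 for Krt14. With mouse as a block in the 10 libraries of the numbered mice the values were 6.23 for Col17a1, 7.75 for Krt5 and 6.92 for Krt14.

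Itgb4 (chromosome 11, 115974709 to 116008412, plus strand) encodes the integrin subunit whose long cytoplasmic tail binds plectin. In aged epithelium Itgb4 stood at 119.5, 90.3, 80.6, 63.0 and 80.8 normalized counts in O1E, O2E, O3E, OF5 and OM8, and in young epithelium at 90.6, 64.3, 73.8 and 71.3 in Y1E, Y3E, YF5 and YM4. In stroma Itgb4 stood at 16.3, 14.7 and 13.01 in the aged O1S, O2S and O3S and at 24.1 and 20.3 in the young Y1S and Y3S. The layers did not overlap. Within stroma both young libraries were above all 3 aged ones, and aged and young stroma stood apart in this way for 2 of the 9 genes (Itgb4 and Lama3) and, in either direction, for 20.3% of all genes tested between the layers, a share near that of the 9. Itgb4 was 4.63-fold higher in epithelium (log2 fold change 2.21, SE 0.20, edgeR adjusted p = 9.60e-09). In GENCODE M21 a non-coding gene on the opposite strand, B230344G16Rik, covers 537 bases of its exons, and whether the counting used strand is not given in the sources used here.

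Itga6 (chromosome 2, 71745616 to 71858416, plus strand) encodes the partner of Itgb4 in the hemidesmosome, which can also pair with Itgb1. In aged epithelium Itga6 stood at 42.5, 41.2, 37.4, 16.5 and 33.9 normalized counts in O1E, O2E, O3E, OF5 and OM8, and in young epithelium at 45.1, 39.0, 22.5 and 30.8 in Y1E, Y3E, YF5 and YM4. In stroma Itga6 stood at 11.7, 6.74 and 23.6 in O1S, O2S and O3S and at 11.1 and 15.1 in Y1S and Y3S. This was the only gene of the 9 whose layers overlapped, because O3S was high among stromal libraries and the lettered OF5 and YF5, with 48 and 54 counts, were low among epithelial ones. Within each of the 5 mice with both layers, epithelium was the higher, by a log2 difference of 0.65 to 2.53. Itga6 was 2.54-fold higher in epithelium (log2 fold change 1.34, SE 0.27, edgeR adjusted p = 0.000243), the smallest change among the 6 genes higher in epithelium. Per kb of exon, Itga6 had 0.328 ± 0.0807 (SD, n = 9) of the Itgb4 level in epithelium and 0.357 to 1.41 of it in stroma.

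Itga3 (chromosome 11, 95044474 to 95076801, minus strand) encodes the subunit that with Itgb1 forms a second laminin receptor of basal keratinocytes, outside hemidesmosomes. In aged epithelium Itga3 stood at 18.3, 18.5, 14.9, 10.7 and 14.8 normalized counts in O1E, O2E, O3E, OF5 and OM8, and in young epithelium at 22.6, 14.8, 12.5 and 16.3 in Y1E, Y3E, YF5 and YM4. In stroma Itga3 stood at 0.758, 2.10 and 8.19 in O1S, O2S and O3S and at 4.28 and 5.83 in Y1S and Y3S. The layers did not overlap, but the stromal libraries spread widely, with O1S lowest at 13 counts and O3S highest at 214. Itga3 was 3.78-fold higher in epithelium (log2 fold change 1.92, SE 0.37, edgeR adjusted p = 0.000228). Its partner Itgb1 went the other way, with a log2 fold change of -1.18 (SE 0.17, edgeR adjusted p = 4.32e-06), and Itga7, the Itgb1 partner of skeletal muscle, had -4.14 (SE 0.25, edgeR adjusted p = 2.59e-11). Per kb of exon, Itgb1 had 0.864 to 1.71 of the Itgb4 level in epithelium and 8.48 to 18.4 of it in stroma.

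Cd151 (chromosome 7, 141467392 to 141471473, plus strand) encodes a tetraspanin that associates with the laminin-binding integrins of epithelium and of other tissues. In aged epithelium Cd151 stood at 15.2, 17.9, 17.1, 6.55 and 10.1 normalized counts in O1E, O2E, O3E, OF5 and OM8, and in young epithelium at 17.0, 15.7, 13.8 and 11.4 in Y1E, Y3E, YF5 and YM4. In stroma Cd151 stood at 44.7, 35.6 and 32.8 in O1S, O2S and O3S and at 39.3 and 37.5 in Y1S and Y3S. Every stromal library was above every epithelial one, and the stromal values lay close together. Cd151 was 2.68-fold lower in epithelium (log2 fold change -1.42, SE 0.19, edgeR adjusted p = 1.64e-06). The non-coding Gm10575 on the opposite strand covers 193 bases of its exons.

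Dst (chromosome 1, 33908225 to 34308661, plus strand) encodes dystonin, the plakin also known as bullous pemphigoid antigen. RefSeq gives 2 starts for it within the deposited gene row, 148665 bases apart, and the counts add the transcripts of all starts. The 250 bases before each start are printed because the count cannot separate them. They are taken from the RefSeq promoter windows (build GRCm38.p6, plus strand, 5′ to 3′), at chr1:34011345-34011594 and chr1:34160010-34160259, both in introns of longer annotated Dst transcripts, with the Sp1 letters GGGCGG in capitals.
Dst, upstream start: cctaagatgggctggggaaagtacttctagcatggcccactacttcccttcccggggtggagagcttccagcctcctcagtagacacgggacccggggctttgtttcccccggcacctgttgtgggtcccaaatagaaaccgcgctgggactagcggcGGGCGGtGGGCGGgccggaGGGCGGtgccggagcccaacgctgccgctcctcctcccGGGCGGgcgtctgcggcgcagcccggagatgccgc
Dst, downstream start: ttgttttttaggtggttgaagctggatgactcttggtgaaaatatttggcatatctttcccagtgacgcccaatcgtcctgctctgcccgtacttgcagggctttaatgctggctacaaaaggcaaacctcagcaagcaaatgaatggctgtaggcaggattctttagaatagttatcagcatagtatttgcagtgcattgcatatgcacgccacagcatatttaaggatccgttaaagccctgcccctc
The window of the upstream start held these letters 4 times and that of the downstream start held none of the letters searched, while 35.7% of all RefSeq promoter windows held GGGCGG on either strand. A match is a description of the letters and not a bound site.

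In aged epithelium Dst stood at 270.0, 264, 268, 231 and 276 normalized counts in O1E, O2E, O3E, OF5 and OM8, and in young epithelium at 244, 295, 160.4 and 196 in Y1E, Y3E, YF5 and YM4. In stroma Dst stood at 1246, 995 and 745 in O1S, O2S and O3S and at 1335 and 869 in Y1S and Y3S. The lowest stromal library was well above the highest epithelial one. Dst was 4.23-fold lower in epithelium (log2 fold change -2.08, SE 0.21, edgeR adjusted p = 4.30e-08). Although the gene was lower there, every epithelial library held Dst, at 385 to 9289 counts. The opposite-strand genes Gm26788 and A930005N03Rik cover 1037 and 456 bases of its exons.

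Plec (chromosome 15, 76170974 to 76232574, minus strand) encodes plectin, which links intermediate filaments to hemidesmosomes in epithelium and to Z-discs and costameres in muscle, and GENCODE M21 lists 21 coding transcripts for it. In aged epithelium Plec stood at 514, 345, 362, 338 and 356 normalized counts in O1E, O2E, O3E, OF5 and OM8, and in young epithelium at 398, 252, 389.6 and 322 in Y1E, Y3E, YF5 and YM4. In stroma Plec stood at 2042, 1666 and 1411 in O1S, O2S and O3S and at 2078 and 1381 in Y1S and Y3S. The layers were far apart, with O1 the highest aged mouse in each. Plec was 4.71-fold lower in epithelium (log2 fold change -2.24, SE 0.22, edgeR adjusted p = 2.62e-08). The ratio of Dst to Plec per kb of exon overlapped between the layers, at 0.308 ± 0.0937 (SD, n = 9) in epithelium and 0.265 ± 0.0197 (SD, n = 5) in stroma. On the same strand Parp10 covers 205 bases of the Plec exons, so that reads there cannot be assigned to either gene.

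The laminin chains were next. Lama3 (chromosome 18, 12333819 to 12583013, plus strand) stood at 21.8, 25.8, 22.9, 16.2 and 24.3 normalized counts in O1E, O2E, O3E, OF5 and OM8 and at 20.8, 21.4, 17.1 and 17.3 in Y1E, Y3E, YF5 and YM4. In stroma Lama3 stood at 3.50, 3.29 and 0.918 in O1S, O2S and O3S and at 4.80 and 6.07 in Y1S and Y3S. The layers did not overlap. Lama3 was 5.66-fold higher in epithelium (log2 fold change 2.50, SE 0.30, edgeR adjusted p = 6.44e-07). The antisense gene Gm29200 covers 197 bases of its exons.

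Lamb3 (chromosome 1, 193207699 to 193343878, plus strand) stood at 45.3, 41.3, 36.2, 23.8 and 20.7 normalized counts in O1E, O2E, O3E, OF5 and OM8 and at 43.5, 27.9, 19.2 and 21.8 in Y1E, Y3E, YF5 and YM4. In stroma Lamb3 stood at 0.0583, 4.35 and 2.26 in O1S, O2S and O3S and at 2.37 and 3.66 in Y1S and Y3S, the O1S value being a single count. No stromal library came near an epithelial one. Lamb3 was 12.2-fold higher in epithelium (log2 fold change 3.61, SE 0.50, edgeR adjusted p = 1.31e-05). With mouse as a block in the 10 libraries of the numbered mice the log2 fold change of Lamb3 was larger, at 4.24.

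Because a laminin holds 1 alpha and 1 beta chain among its chains, the share of each of these chains among its kind was taken from the levels per kb of exon. Lama3 made up 30.5% ± 5.78 (SD, n = 9) of alpha chain RNA in epithelium and 4.20% ± 2.47 (SD, n = 5) in stroma. Lamb3 made up 41.1% ± 6.57 of beta chain RNA in epithelium and 2.30% ± 1.53 in stroma. Lamb2 had the larger mean share of beta chain RNA in both layers, at 50.1% ± 5.47 in epithelium and 78.5% ± 9.15 in stroma. The ranges of Lama3 and of Lamb3 did not overlap between the layers. Lama5, whose chain is common to most epithelial basement membranes, made up 35.1% ± 7.54 of alpha chain RNA in epithelium and 19.9% ± 5.28 in stroma. Lama2, the alpha chain of muscle and nerve, and Lama4, that of vessels, made up 38.5% ± 4.88 and 34.8% ± 3.35 in stroma and 18.1% ± 3.45 and 15.1% ± 3.18 in epithelium. Shares sum to 100% within a library, so that they show unequal change and not which chain changed.

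**Figure D3:**
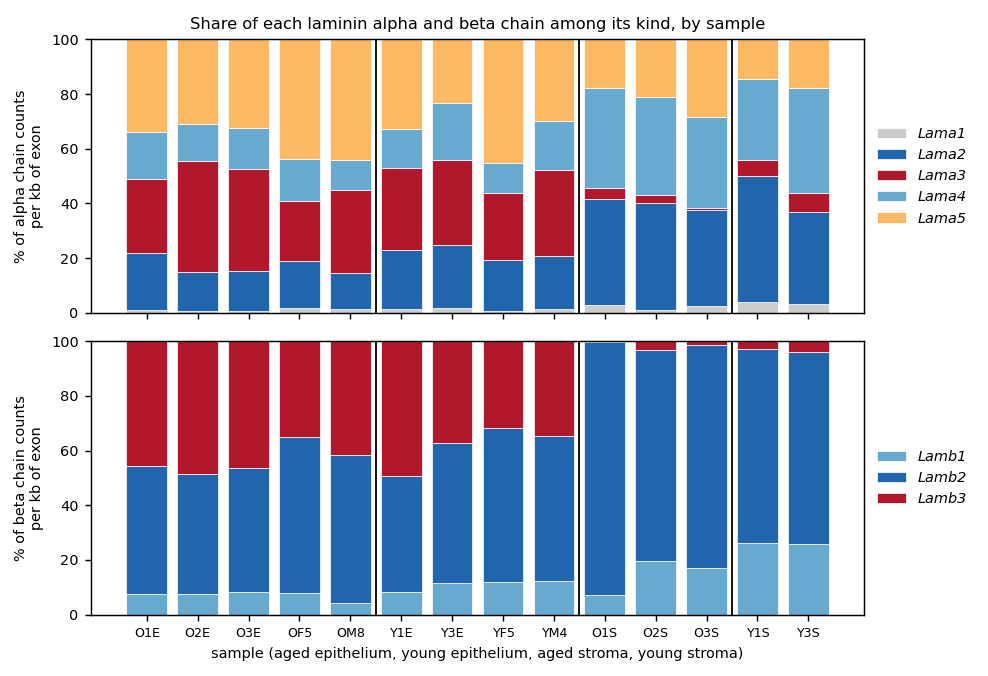
Share of each laminin alpha and beta chain (percent of the normalized counts per kb of exon of its kind) in each library, with vertical lines between the 4 groups. Lama3 and Lamb3 (red) hold a visible part of every epithelial bar, with Lamb3 from 31.8% to 49.2%, and a thin part of most stromal bars, with Lamb3 at 3.90% or less.

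How much of each gene remained in the layer where it was low was set beside markers of the other layer. In stroma, the basal keratinocyte markers summed to 1.76% of their epithelial mean (0.730% to 3.91% over the 5 libraries), with Sox2 at 0 in 2 of them. Col17a1 lay in the same range, at 1.82% (0.885% to 2.95%). The means of the other genes were above that of the summed markers: Lamb3 at 8.18% (0.188% to 14.01%), Lama3 at 17.8% (4.40% to 29.1%), Itgb4 at 21.7% (15.9% to 29.5%), Itga3 at 26.5% (4.76% to 51.4%) and Itga6 at 39.8% (19.6% to 68.8%). Lamb3 in O1S, at 0.188%, was below the lowest marker sum. By edgeR's fold change the single markers ran from 1.10% for Krt5 to 8.85% for Trp63, so that Lamb3 did not stand above each of them. In every stromal library Itgb4 and Itga6 held a larger part of their epithelial mean than the summed keratinocyte markers did. Markers of some other stromal cells moved with the layer as well. Of the Schwann cell and nerve markers 7 of the 8 tested were lower in epithelium, with summed levels of 22.5 to 41.4 in epithelium and 37.5 to 142 in stroma. Of the endothelial markers 6 of 6 were lower, with summed levels of 17.7 to 31.8 and 38.8 to 138. Fibroblast markers were lower in 3 of 6 cases and smooth muscle markers in 2 of 5. Their summed levels overlapped between the layers, at 280 to 632 and 415 to 1031 for fibroblasts and 333 to 835 and 303 to 2051 for smooth muscle. The part of any of these cells in the stromal levels of Itga6 and Itgb4 was not tested.

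In epithelium, the 12 skeletal muscle markers summed to 1.05% of their stromal mean (0.289% to 3.17% over the 9 libraries), and each of the 12 was lower in epithelium by edgeR's test, with Tnnc2 at 0 in 3 libraries and Myh2 in 2. Dst kept 23.6% of its stromal mean (15.5% to 28.4%), Plec 21.2% (14.7% to 29.9%) and Cd151 36.5% (17.2% to 47.0%). In each epithelial library these 3 genes were thus a larger part of their stromal level than the 12 summed skeletal muscle markers. This did not extend to all muscle genes. The muscle membrane and costamere markers, which include dystrophin and the sarcoglycans, were lower in epithelium in 9 of 9 cases. They summed to 154 to 209 (mean 174) in epithelium and 560.3 to 732 (mean 622) in stroma. By edgeR's fold change they ran from 1.46% of the stromal level for Sgca to 64.2% for Utrn, a span that holds the values of Dst, Plec and Cd151. Skeletal muscle genes and the 3 genes were high in the same 5 stromal libraries, and how much of the stromal Dst, Plec and Cd151 RNA came from muscle was not tested. The part of fibroblasts and smooth muscle in the epithelial levels of the 3 genes was not tested either.

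**Figure D4:**
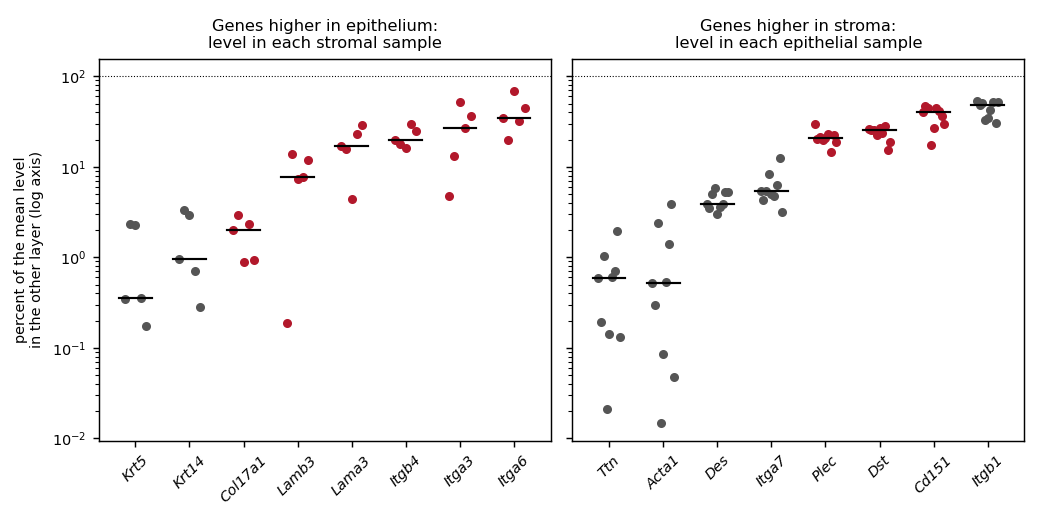
Level of each gene in single libraries of the layer where it was low, as a percent of its mean in the other layer (log axis, dotted line at 100%, bar at the median), with the 9 genes in red and comparison genes in grey. Col17a1 lies with Krt5 and Krt14 at 3.36% or less, while Itgb4 and Itga6 in stroma and Plec, Dst and Cd151 in epithelium lie between 14.7% and 68.8%.

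The other genes of the same pathways were described by lists. Of 8 other laminin chains examined, 0 were higher in epithelium and 7 were lower, from -2.15 for Lamc3, and Lama5 had a log2 fold change of 0.30 that did not pass (edgeR adjusted p = 0.31). Lamc3 did not pass with mouse as a block (-1.23, edgeR adjusted p = 0.36), in the same 10 libraries without the block (-1.89, edgeR adjusted p = 0.07) or without mouse Y3 (-1.73, edgeR adjusted p = 0.078), and without mouse O3 Lama5 passed, at 0.62 (edgeR adjusted p = 0.035). The median log2 fold change of these 8 chains was -1.58, against -0.05 over all genes tested. Of 14 other basement membrane and anchoring proteins, Agrn (1.59) and Col7a1 (1.34, SE 0.35, edgeR adjusted p = 0.0033) were higher in epithelium and 9 were lower, from -3.51 for Nid2, with a median of -1.60. Agrn encodes agrin, a basement membrane proteoglycan, and Nid2 a nidogen that bridges laminin and collagen networks.

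Of 11 other integrin subunits, only Itgav (0.91), an alpha subunit of fibronectin and TGF-beta binding integrins, was higher in epithelium and 7 were lower, with Itga7 lowest at -4.14 and a median of -0.82. Among the other plakins, unlike Dst and Plec, 4 of 5 were higher in epithelium, with desmoplakin (Dsp), the plakin of desmosomes, at 7.24, none was lower, and Macf1 at 0.26 did not pass, except without a filter on low counts (0.46, edgeR adjusted p = 0.036). Of 6 other tetraspanins, Cd9 (1.62) was higher and 4 were lower, from -2.84 for the leukocyte tetraspanin Cd37. Of 6 activators and linkers of integrins, 2 were higher, with the epithelial kindlin Fermt1 at 4.04, and 4 were lower, with the talin Tln2 at -3.93. Without mouse O3, Cd37 had -1.42 and did not pass (edgeR adjusted p = 0.088), and Fermt1 had 4.93, and without mouse O2 Dsp had 7.85. The median log2 fold changes of these last 3 lists (plakins, tetraspanins and linkers) were 5.47, -1.05 and -1.47.

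Levels within epithelium were also compared between the numbered and lettered mice. Itga6 stood at 37.4 to 45.1 normalized counts in the 5 numbered mice and at 16.5 to 33.9 in the 4 lettered mice, Lamb3 at 27.9 to 45.3 and 19.2 to 23.8, and Cd151 at 15.2 to 17.9 and 6.55 to 13.8, without overlap in any of these genes. The other 6 genes overlapped, so that 3 of 9 stood apart, against 19.6% of all genes tested between the layers. Col17a1 overlapped at 152 to 222 and 109.6 to 158, and Plec at 252 to 514 and 322 to 389.6. Among the partners, Krt14 moved the same way, at 279.5 to 437 in numbered and 97.5 to 198 in lettered mice. Krt5 overlapped, at 553 to 960 and 269 to 555. Col7a1 ran the other way with overlap, at 10.7 to 19.3 in numbered and 14.9 to 34.2 in lettered mice. Summed differentiated keratinocyte markers stood apart, at 41264 to 53232 in numbered and 17116 to 27638 in lettered mice. The form of the code was kept as a term in the test of age, and the part of depth or of the ribosomal share in these gaps was not tested.

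No difference between aged and young epithelium was detected for the 9 genes. In edgeR's quasi-likelihood test of 5 aged against 4 young epithelial libraries, 0 of 9 genes passed, 0 had an unadjusted p under 0.05, and DESeq2 called 0. Over all 15859 genes tested the test called 2, or 0.0126%. Aged and young libraries overlapped for every one of the 9 genes, and 1.27% of all genes tested had no overlap. The log2 fold changes were 0.10 for Col17a1, -0.08 for Itga6, 0.17 for Itgb4, -0.14 for Itga3, 0.20 for Dst, 0.15 for Plec, -0.16 for Cd151, 0.17 for Lama3 and 0.15 for Lamb3, with SEs of 0.14 to 0.17. Each had an adjusted p of 0.9996 from this test. Their median was 0.15, against -0.0033 over all genes tested. The 95% confidence intervals of the 9 genes ran at the widest from 0.701-fold for Cd151 to 1.41-fold for Dst, so that larger changes in these directions lay outside them.

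Within the numbered mice alone (3 aged, 2 young) the log2 fold changes ran from -0.12 for Itga3 to 0.32 for Plec, and within the lettered mice alone (2 aged, 2 young) from -0.54 for Cd151 to 0.53 for Dst. Itgb4 and Plec were at 0.32 each in the numbered mice but at 0.018 and -0.0056 in the lettered mice, and Dst and Cd151 were at -0.020 and 0.023 in the numbered mice. The lettered Dst value had an unadjusted p of 0.041 and an adjusted p of 0.62 in edgeR's test. Taken per 100 normalized counts of the basal keratins Krt5, Krt14 and Krt15, Col17a1 stood at 7.96 to 22.4 in aged and 8.68 to 14.6 in young epithelium, and Itgb4 at 3.70 to 11.5 and 4.27 to 8.03, again overlapping. The basal keratins themselves summed to 662 to 2179 normalized counts in aged and 918 to 2122 in young epithelium. By code form these sums were 1447 to 2179 in numbered and 662 to 1199 in lettered mice. The ratios pool both forms, so that their overlap cannot be read for age apart from the form of the code.

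**Figure D5:**
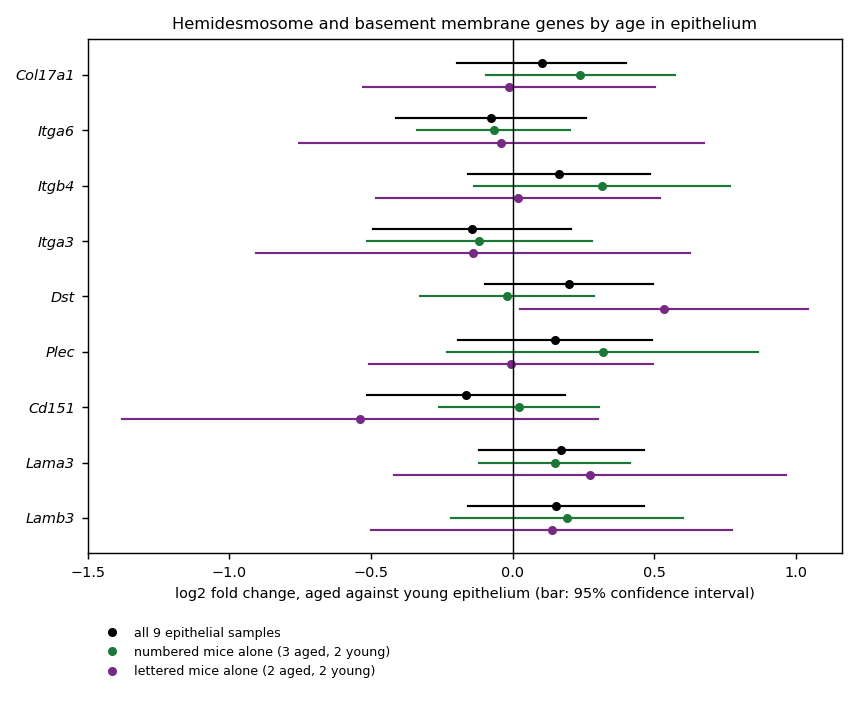
Log2 fold changes of aged against young epithelium for the 9 genes with 95% confidence intervals, over all 9 epithelial libraries (black), in numbered mice (green) and in lettered mice (purple). The black intervals all cross 0, and the black points lie between -0.16 and 0.20. The purple points run from -0.54 for Cd151 to 0.53 for Dst, and the purple Dst interval, 0.025 to 1.04, lies above 0.

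The partners did not pass with age either. Of the lists of other laminins, basement membrane proteins, integrins, plakins, tetraspanins and linkers, 0 genes were called by edgeR or by DESeq2. At an unadjusted p under 0.05 there were 2, both with an adjusted p of 0.9996 in edgeR's test. Col7a1, the anchoring fibril collagen, had a log2 fold change of 0.46 (unadjusted p = 0.021) and Lamb1 had -0.50 (unadjusted p = 0.034). Lama5 had 0.31.

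Whether the layer difference itself varied with age was tested as an interaction in the 10 libraries of the 5 numbered mice, where a positive value means that aged minus young was larger in epithelium than in stroma. edgeR called 0% of 22771 genes, with 979 at an unadjusted p under 0.05, and DESeq2 called 62, none among the 9. The largest value among the 9 was Lama3 at 1.27 (SE 0.60, unadjusted p = 0.058), followed by Itgb4 at 0.94 (SE 0.34, unadjusted p = 0.017), with an adjusted p of 0.99997 for each in edgeR's test. Col17a1 had -0.0023 with a SE of 0.53. With 3 aged and 2 young mice this comparison was the least precise. In counts simulated with 1 mean per gene over the 10 libraries and the same depths, it recovered 0 of 67 genes changed by a log2 of 1. Unlike the data, those counts held no layer or age difference apart from the interaction put in, so the power of the real test was not measured.

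The gene whose level across the 14 libraries was most like each of the 9 was found from Pearson's r of log2 normalized counts. Because the libraries fall into 2 layers, r mostly reads the layer, and the values are a description without a test. Col17a1 was nearest to Fam83b (r = 0.996), Itgb4 to Gstm6 (0.990), Itga3 to Vopp1 (0.984), Lama3 to Sptlc1 (0.994) and Lamb3 to Kdelr2 (0.993). Itga6 was nearest to Mapk6 (0.957), then to the mitotic kinesin gene Kif15 (0.955) and to Prr11 (0.954). Dst was nearest to Foxo4 (0.992), then to Ank1 and Card19, and Plec to Stim1 (0.989), then to Nfe2l1 and Map4. Cd151 was nearest to Uqcrfs1 (0.991), Cyc1 (0.990) and Ndufs1 (0.983), which encode subunits of the mitochondrial respiratory chain. Among the 9 themselves, the nearest pairs were Col17a1 with Itgb4 (0.972), Lama3 with Itgb4 (0.957) and Dst with Plec (0.954).

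RefSeq promoter windows, 250 bases before to 50 after a start, were at hand for 5 of the 9 genes (Dst, Lamb3, Cd151, Itga3 and Col17a1), 9 windows in all. The Sp1 letters GGGCGG were in 4 of the 9, at Dst, Cd151 and both Itga3 starts, against 35.7% of all 32851 windows, and TATAAA in 1, at Col17a1, against 13.6%. The AP-1 letters TGANTCA were in 1, at the inner Itga3 start, against 7.81% of all windows. The p53 family letters CATGNNNNNNCATG were in 0 of the 9, against 0.712%. All letters were searched on both strands, and a window without them says only that they are not within those 300 bases.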

How the data were processed

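Bulk RNA-Seq of esophageal epithelium and stroma (14 libraries, 9 mice, oligo(dT)-enriched mRNA) was used. Reads had been aligned by the authors with Rsubread (GRCm38.p6) and summed per gene by featureCounts, and the deposited values are whole-number counts without normalization. Demultiplexing used bcl2fastq per the submitters' processing notes, and tool versions, annotation release, strand and multi-mapping settings are not given in the sources used here. Gene positions and exon lengths came from GENCODE M21, in which 53292 of 55291 symbols were found, and promoter windows from RefSeq (GRCm38.p6). Groups came from the sample labels. The 9 genes and the lists were chosen with earlier results of these data known, and 1 item is not reported here.

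Tests used edgeR 4.0.16 under R 4.3.3 (quasi-likelihood, TMM, filterByExpr with a minimum count of 10, estimateDisp, robust glmQLFit), with Benjamini-Hochberg adjustment over all genes and a threshold of 0.05. All 9 genes passed the filter in each comparison. Epithelium was compared with stroma over 14 libraries without a covariate, age within the 9 epithelial libraries with numbered or lettered code as covariate, and the interaction in 10 libraries. Standard errors were taken as the log2 fold change over the root of F. Levels printed are normalized counts of the 14-library comparison, on which 3 counts equal 0.0872 to 1.25 in epithelium and 0.115 to 0.175 in stroma. The genes named are the 9 genes, 7 partners set beside them, the largest and smallest change of each list, and the 3 genes most like each by r with 0.5 added before log2. Overlapping genes, markers at 0 and Lamb1 were named after their values were seen.

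Epithelium and stroma of a numbered mouse come from the same animal. Deviations from group means correlated at 0.042 to 0.068 within O1, O2 and O3. Y1 and Y3 shared 1 value of 0.141, because the deviations of 2 mice from their own mean mirror each other. A block for mouse was an alternative. Aged and young mice share only a number (r from -0.192 to -0.032 over 3 pairs). No 2 libraries of a group agreed within sampling noise (chi-square per degree of freedom of at least 12.0 in 20 pairs). Alternatives were DESeq2 1.42.0, upper quartile normalization, no filter, at least 10 counts in every library, ribosomal RNA, repeat and mitochondrial genes left out, other covariates and subsets, and leaving out single mice. Adjusted p was NA in DESeq2 for 49, 4623 and 1484 genes in the 3 comparisons. The procedure was tested on simulated counts with 200 genes changed: it recovered 127 between layers with 5 false calls, 155 by age with 14 and 22 in the interaction with 4. Among the 67 with a true log2 change of 1, these were 20, 41 and 0. Each simulated gene had 1 mean over the libraries of a comparison. Only 200 genes were changed, against 9441 called between the layers in the data, so these numbers do not give the sensitivity of the real layer test. Errors hold counting noise and variation among mice.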

Additional observations from a re-analysis of the deposited data

Results flagged for a closer look

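Of 36 groups of values examined among the 9 genes, 4 held a library far from the rest of its group, where chance gives about 1 in 20. Values are log2 of the normalized count with 0.5 added. Itga6 in aged epithelium was lowest in OF5, at 4.09 from 48 counts, against 5.11 to 5.43 in the other aged libraries. Dst in aged epithelium was also lowest in OF5, at 7.85 against 8.05 to 8.11. OF5 is a lettered mouse with shallow depth. Plec in aged epithelium was highest in O1E, at 9.01 against 8.40 to 8.50. Lamb3 in stroma was lowest in O1S, at -0.84 from 1 count, against 1.46 to 2.28 in the other stromal libraries. The call of each gene between the layers was kept when either mouse was left out.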

How the results depend on the processing

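Between the layers, the 9 genes kept their direction and their call in every alternative in which they were tested. Lamb3 was not tested with at least 10 counts in every library, where 4316 of 6711 genes were called, fewer genes being tested. Macf1, which did not pass, took values of -0.021 there and -0.0090 without the block in the 10 libraries, and passed without a filter (0.46). Leaving out each mouse in turn gave 8395 to 9484 calls. The stricter filter moved the median log2 fold change of all genes by -0.31, no filter by 0.20 and mouse as a block by 0.31. With mouse as a replicate block in the 10 paired libraries 8689 genes were called and without it 9400, and the block changed no call of the 9 genes (Col17a1 6.23 with the block). By age in epithelium, calls numbered 28 with DESeq2, 36 without a filter, 0 without the covariate, 4 in numbered and 1 in lettered mice, and 0 to 3 when each mouse was left out, with 0 calls without Y1 and 1 without O1 or without O3, and 2 with the mouse number as a block in 6 libraries. None of these calls was among the 9 genes. Signs of values that did not pass turned for Dst (-0.020) and Cd151 (0.023) in numbered mice and for Col17a1 (-0.012) and Plec (-0.0056) in lettered mice. With each mouse left out, Itga6 ran from -0.23 to 0.036, Itga3 from -0.30 to 0.028, Plec from -0.010 to 0.25 and Lamb3 from -0.0021 to 0.32. For the interaction, calls numbered 62 with DESeq2, 98 without a filter and 0 with each mouse left out. Signs turned for Col17a1 with upper quartile normalization (0.044) and the block (0.020), Itga6 with the block (0.027), Dst without a filter (-0.050), and Cd151 without a filter (-0.15) or without ribosomal RNA, repeat and mitochondrial genes (-0.051). With each mouse left out, Col17a1 ran from -0.61 to 0.37, Itga6 from -0.60 to 0.55, Itga3 from -0.30 to 1.80, Dst from -0.29 to 0.49, Cd151 from -0.10 to 0.15 and Lamb3 from -0.12 to 1.38. The cause of these moves was not tested. Depth limits the lettered libraries most, where Cd151 had 19 to 43 counts.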
